A study of Mus musculus with 60 samples.

Results

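The genes described here are those whose mRNA fell at 37 °C when mouse ear fibroblasts were treated with TNF-α for 3 h. A gene was taken when the mean of log2(FPKM + 1) in the 3 treated libraries lay at least 0.8 below that in the 3 unstimulated 37 °C libraries, and when its mean over those 6 libraries was at least 3 FPKM. FPKM are mapped fragments scaled to the length of the transcript and to the depth of the library. Of 10122 genes in the table, 135 met both conditions. Leaving out symbols that start with Col, Slc, Zfp, Kif, Egr, Fos, Irs, Adamts or Pdgfr removed 8 and left 127 members. A further 71 genes fell as far but lay under 3 FPKM. The members are 110 genes with a name and 17 gene models without one. Since the members were chosen by their 37 °C values in these 6 libraries, those values are given as a description, and tests were made in the other temperatures, with the other cytokine and at the other hour.

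The cells are fibroblasts that were isolated from the ears of adult DKI mice and passaged until they grew without limit, a line the labels call Immortalized Ear Fibroblast GR NLS-iRFP-NLS. All groups share this line and its endogenous fluorescent reporters of RelA and c-Rel, so no comparison tests either. After a night at 37 °C, dishes were kept for 2 h at 24, 34, 37 or 40 °C and were then lysed as unstimulated cells, or received 10 ng/mL of a murine cytokine, either TNF-α or IL-1β, for 1 or 3 h. That gives 20 groups of 3 libraries, 60 in all. Unstimulated cells had thus spent 2 h at their temperature and treated cells 3 or 5 h, so a change against unstimulated cells cannot be told apart from these extra hours. TNF-α against IL-1β at the same hour is free of that difference. The results are from a single cell line.

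TNF-α and IL-1β bind different receptors, and both lead to the kinase IKK, to NF-κB and to the stress-activated MAP kinases. Most descriptions of these cytokines in fibroblasts concern the chemokine and cytokine genes that rise. BMP signalling, to which some of the members belong, is known for its part in the differentiation of connective tissue cells. BMP ligands act through receptor kinases that phosphorylate SMAD proteins. These enter the nucleus and switch on Id1, Id2 and Id3, whose products bind and block other helix-loop-helix factors, and Smad6, whose product inhibits the same receptors.

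Of 8 fibroblast markers, 6 were in the table, at means of 76.5 to 3289 FPKM, and Dcn and Lum were not. Of 20 markers of epithelial, blood, endothelial and other cells, 6 were in it, at 0.426 to 10.7 FPKM. The highest of these was Sox9, listed for chondrocytes, at 5.23 to 18.1 FPKM across the libraries. Summed over a culture, fewer cells of a type and less RNA per cell cannot be told apart. The files hold no read counts. Their depth is unknown: steps between low values fitted whole fragments well in some libraries and no better than an even spread in others, so no depth is given. Replicates of a group correlated at r = 0.969 to 0.983 across genes. The 24 °C libraries carry the last 15 library numbers, and a separate preparation, if there was one, cannot be told apart from 24 °C. Of all values, 3.77% were 0, and 12 members were listed at 0 in some library.

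No promoter entry was found for Id1. The promoters of 4 other members tied to BMP signalling, picked by hand, are shown. Each is the 250 bases before the annotated start of the gene, 5′ to 3′ on the strand of the gene, from RefSeq on GRCm38.p6. Capitals mark GGCGCC, a core that BMP-activated SMAD proteins can bind. The windows are chr12:25096093-25096342 on the minus strand for Id2, chr4:136143572-136143821 on the plus strand for Id3, chr9:64022060-64022309 on the minus strand for Smad6 and chr3:54755332-54755581 on the plus strand for Smad9.
Id2: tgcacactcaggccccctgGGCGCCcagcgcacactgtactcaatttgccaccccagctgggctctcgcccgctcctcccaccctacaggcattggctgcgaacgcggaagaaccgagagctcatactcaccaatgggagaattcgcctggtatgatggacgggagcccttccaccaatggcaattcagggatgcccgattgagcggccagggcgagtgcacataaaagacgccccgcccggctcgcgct
Smad9: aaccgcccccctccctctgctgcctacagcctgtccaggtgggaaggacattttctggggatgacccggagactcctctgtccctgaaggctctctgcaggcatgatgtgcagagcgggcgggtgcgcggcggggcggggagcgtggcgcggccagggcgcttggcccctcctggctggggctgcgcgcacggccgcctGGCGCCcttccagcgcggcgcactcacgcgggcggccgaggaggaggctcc
Id3: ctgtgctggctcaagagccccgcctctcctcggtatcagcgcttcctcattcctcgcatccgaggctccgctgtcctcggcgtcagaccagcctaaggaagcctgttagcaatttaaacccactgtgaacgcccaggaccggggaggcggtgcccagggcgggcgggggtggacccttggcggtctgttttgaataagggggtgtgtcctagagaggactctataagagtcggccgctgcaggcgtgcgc
Smad6: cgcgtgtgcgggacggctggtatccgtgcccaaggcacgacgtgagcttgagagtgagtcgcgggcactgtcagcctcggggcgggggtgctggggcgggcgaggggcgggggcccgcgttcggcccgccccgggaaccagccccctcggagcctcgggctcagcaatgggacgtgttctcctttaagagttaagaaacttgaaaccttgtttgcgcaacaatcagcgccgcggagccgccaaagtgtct
The first base of GGCGCC lay 231 bases before the start of Id2 and 51 bases before that of Smad9. The windows of Id3 and Smad6 do not hold these letters, which says nothing of binding elsewhere.

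A promoter entry was found for 91 of the 127 members, and for 7500 genes of the table. Some genes had more than 1 window: these members had 116 and the table genes 9531. A gene was counted when any of its windows held the motif. GGCGCC, searched on both strands like every motif, stood in 24 of the 91 members (26.4%) and in 19.9% of the 7500 genes. TATAAA, the core of a TATA box, stood in 10 (11.0%, against 7.24%), GGAATG, which TEAD factors bind, in 16 (17.6%, against 12.9%) and CACGTG, the E-box of clock and other helix-loop-helix factors, in 12 (13.2%, against 10.3%). The NF-κB site, named here without its letters, was present in 5 members (5.49%, against 5.65%), and the AP-1 pattern TGANTCA in 4 (4.40%, against 5.29%). Counted by window, the NF-κB site stood in 6.03% of member windows against 4.72%, and GGCGCC in 25.0% against 16.8%. The CRE letters TGACGTCA and the CArG box of SRF each stood in 1 member (1.10%, against 3.08% and 1.36%). A base could count for more than 1 motif. These shares are descriptions without a test.

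At 37 °C, where they were chosen, the members had means of 4.37 to 1014 FPKM in unstimulated cells, with a median of 10.9. Their median change after 3 h of TNF-α was -1.01 on the log2 scale, and 65 of the 127 fell by at least a factor of 2 on the log2(FPKM + 1) scale. In 109 members, the highest TNF-α library lay under the lowest unstimulated library, as did 16.6% of all genes. In this comparison 7.46% of all genes were called lower, and nothing is read from it, since it chose the members. Just inside the threshold were Plekho1 (-0.81), Spice1 (-0.80) and a gene model, and just outside Pml, Dscc1 and Per1 (each -0.79). The fold changes here and below are on the log2(FPKM + 1) scale, which understates the change of genes at a few FPKM. The largest fall of all was that of Adra1d, the α1D-adrenergic receptor: unstimulated libraries held 28.2, 29.2 and 22.8 FPKM and TNF-α libraries 4.01, 6.89 and 4.34. Atoh8, a helix-loop-helix factor, stood at 76.1, 81.4 and 70.1 FPKM and then at 20.5, 23.6 and 21.3, Arc, an immediate-early gene, at 9.29, 13.1 and 8.03 and then at 2.65, 2.17 and 2.00. For Smad6 the libraries went from 28.3, 28.9 and 22.1 FPKM to 7.69, 7.72 and 6.78, for Rasl11a, a small Ras-like GTPase, from 7.72, 7.44 and 3.11 to 0.84, 1.54 and 1.25. None of these 5 overlapped between the groups. Pagr1a, which shares its exons with Pagr1b, was erratic: it held 8.43, 4.47 and 5.44 FPKM before and 0.56, 5.89 and 0 after, so its groups did overlap. The other 4 of the 10 largest falls were gene models.

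Changes were tested with limma across all 10122 genes and 60 libraries, and a gene was called lower or higher at a Benjamini-Hochberg adjusted p below 0.05. After 3 h of TNF-α at 34 °C, 78 of the 127 members were called lower and 0 higher, where 6.86% of all genes were called lower and 5.71% higher. At 40 °C 84 were called lower and 0 higher, where the background was 9.36% and 9.91%. These comparisons have no library in common with the rule or with each other. Of the 78 and the 84, the same 72 members were called in both. The median member changed by -0.76 at 34 °C and by -0.87 at 40 °C, while the median of all genes lay at -0.05 and -0.0038. At 24 °C the result was different. Limma called 0 members lower after 3 h of TNF-α (background 1.05%) and 0 higher (1.37%). At an unadjusted p below 0.05, 7 were lower (7.38% of all genes) and 11 higher. The median member changed by -0.02. Without the unstimulated replicate 1 the count of members called lower at 24 °C was 1, and without the TNF-α replicate 2 it was 2. Among all genes, 139 were called higher and 106 lower at 24 °C, which cannot be told apart from the extra hours at that temperature. TNF-α against IL-1β at 3 h and 24 °C, free of these hours, called 9 genes higher and 0 lower.

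**Figure D1:**
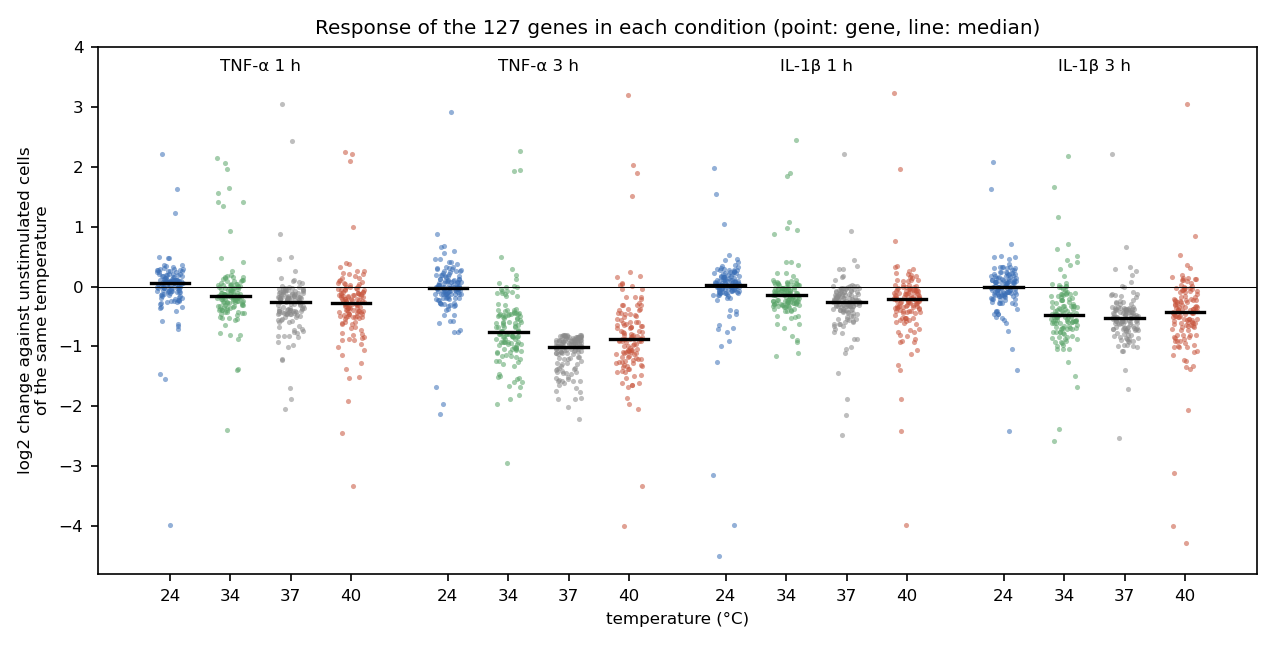
Log2 change of each of the 127 members (points) and their median (line) against unstimulated cells of the same temperature, for each cytokine and hour, by temperature in °C. After 3 h of TNF-α the medians are -0.76 at 34 °C and -0.87 at 40 °C and lie at -0.02 at 24 °C, and the 37 °C points at 3 h of TNF-α are low because they chose the members.

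The difference between temperatures was itself tested. The TNF-α response at 24 °C lay above that at 34 °C in 63 members and above that at 40 °C in 68, and below it in 0 and 0 (2.55% and 4.94% of all genes were called above, 2.85% and 6.53% below). These 2 comparisons share the 24 °C libraries. Between 34 and 40 °C 7 members differed: 4 fell further at 40 °C and 3 less far (0.771% and 1.29% of all genes). Of the 127, 6 were called lower at 34 °C and not at 40 °C, 12 at 40 °C and not at 34 °C, and 37 at neither. The last group holds 12 of the 17 gene models and such named genes as Pagr1a, mt-Atp8, Dpm1, Cox20 and Snora23. Its libraries scattered more within groups (median SD of 0.46 on the log2 scale) than those of the 72 members called at both temperatures (0.17), and its level in unstimulated 37 °C cells was lower (median 6.92 FPKM, against 14.7). In the annotation whose identifiers the table uses, 43 members share exon bases with another gene, and the labels do not state whether the counting used strand.

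**Figure D2:**
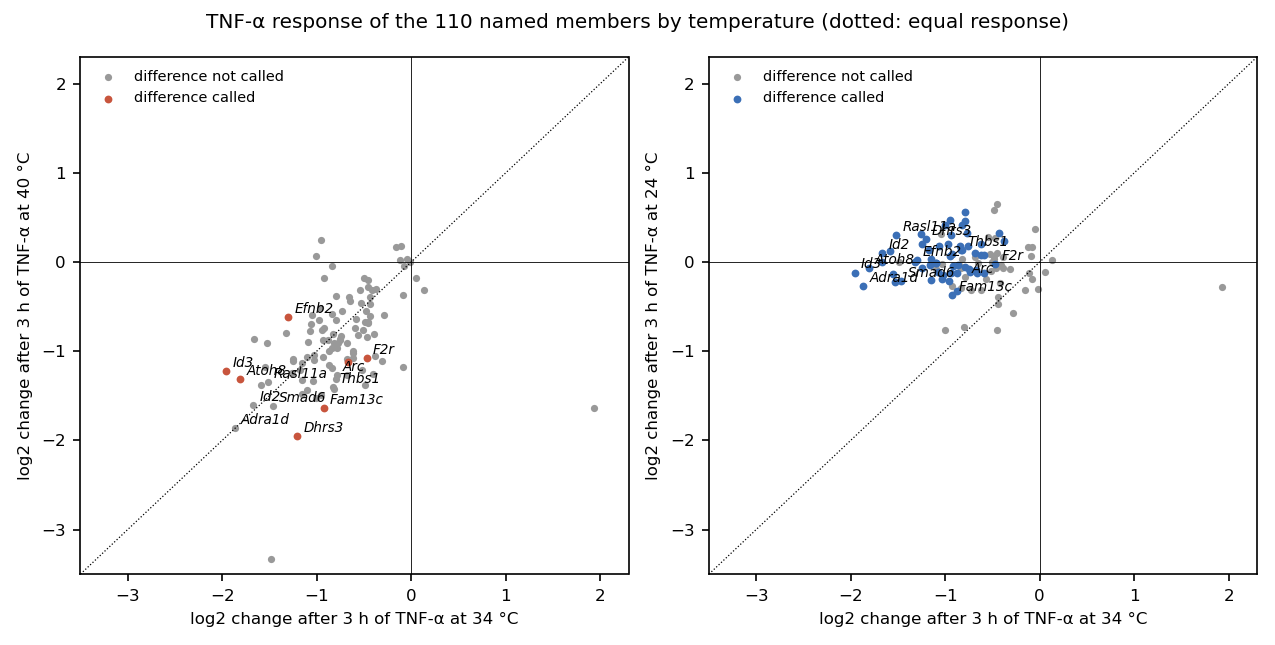
Log2 change after 3 h of TNF-α at 34 °C (x axis) against that at 40 °C or 24 °C (y axis) for the 110 named members, with members whose difference between the temperatures was called in colour and the dotted line marking equal responses. At 40 °C most points lie around the line, and at 24 °C they lie on both sides of 0 while their 34 °C values reach -1.96.

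Of 8 members that transmit or read out BMP and TGF-β signals, 8 fell after 3 h of TNF-α at 34 °C and 8 at 40 °C, with medians of -1.31 and -1.27, and 0 were called at 24 °C. Of all members, 61.4% were called lower at 34 °C and 66.1% at 40 °C, and of all genes 6.86% and 9.36%. Roles were assigned after values had been seen, within a set chosen for its fall. The counts by role, here and below, are therefore descriptions. Id3 stood at 207, 230 and 200 FPKM in unstimulated 34 °C cells and at 46.9, 51.9 and 64.1 after TNF-α, which is a log2 change of -1.96 (SE 0.09, adjusted p = 4.8e-22). At 40 °C it went from 346, 321 and 252 FPKM to 130, 133 and 126 (-1.22, SE 0.09), and at 24 °C from 346, 261 and 289 to 276, 263 and 281 (-0.12, 95% interval -0.30 to 0.06). The 34 and 40 °C groups did not overlap and the 24 °C groups did. Among all genes, 17.3% and 16.6% had every TNF-α library under every unstimulated one at 34 and 40 °C. These shares apply to the genes below as well. Id2 behaved like Id3. It went from 61.4, 70.8 and 61.9 FPKM to 20.8, 23.1 and 15.7 at 34 °C, and from 66.9, 74.9 and 62.2 to 19.9, 23.1 and 21.7 at 40 °C. At 24 °C Id2 held 77.5, 92.1 and 84.2 FPKM before and 91.5, 94.4 and 86.7 after TNF-α, a log2 change of 0.10 (adjusted p = 0.81). Its change at 24 °C lay above that at 34 °C by 1.77 (SE 0.17, adjusted p = 1.5e-10).

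Id1, the most abundant of the Id genes at 24 °C, fell from 171, 175 and 184 FPKM to 75.4, 86.8 and 88.3 at 34 °C (-1.08, SE 0.10) and from 231, 257 and 183 to 126, 136 and 127 at 40 °C (-0.77, SE 0.10). Its unstimulated level at 24 °C was higher than at 34 °C, at 427, 313 and 340 FPKM, a log2 difference of 1.01 with SE 0.10 and an adjusted p of 5.3e-11. TNF-α libraries at 24 °C then held 329, 341 and 317 FPKM of Id1.

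Smad6 and Smad9 sit on either side of the pathway: the first encodes an inhibitory SMAD, the other a SMAD that BMP receptors phosphorylate. Smad6 fell from 23.1, 28.0 and 17.8 FPKM to 6.89, 8.44 and 7.44 at 34 °C and from 24.9, 35.2 and 24.1 to 8.51, 11.1 and 6.17 at 40 °C. For Smad9 the values went from 5.69, 8.64 and 5.83 FPKM to 2.07, 2.81 and 2.39, and from 8.25, 8.87 and 7.39 to 2.63, 2.39 and 1.85. The log2 changes were -1.46 and -1.61 for Smad6 (SE 0.17) and -1.16 and -1.48 for Smad9 (SE 0.13), and no group overlapped. Neither moved at 24 °C beyond its error (-0.21 and -0.04). Atoh8, which BMP signals induce in endothelial cells, went from 60.1, 73.2 and 56.2 FPKM to 16.8, 18.9 and 16.0 at 34 °C, from 103, 103 and 93.8 to 39.8, 44.9 and 35.0 at 40 °C, and at 24 °C from 96.8, 91.8 and 87.8 to 86.6, 89.4 and 86.8. Ski, a nuclear co-repressor that binds SMAD proteins, fell by less, -0.67 at 34 °C and -1.12 at 40 °C (SE 0.07 each). Its fall was larger at 40 °C than at 34 °C (difference -0.45, SE 0.10, adjusted p = 0.0081). Tgfb3, a TGF-β ligand, fell from 42.9, 38.2 and 46.0 FPKM to 18.5, 17.4 and 19.5 at 34 °C and from 46.1, 42.6 and 42.1 to 18.6, 18.6 and 20.8 at 40 °C (-1.15 and -1.13, SE 0.10).

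**Figure D3:**
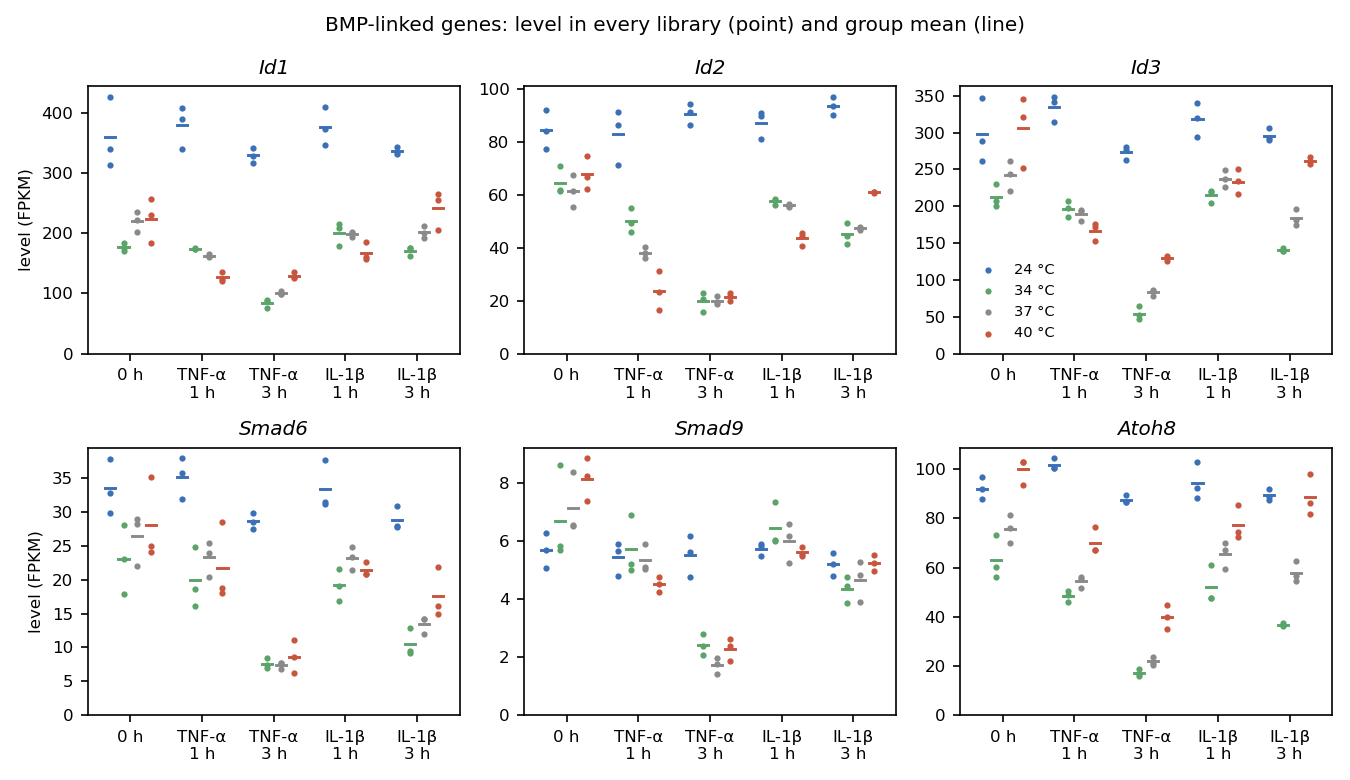
Level in FPKM of 6 BMP-linked members in every library (points) with the group mean (line), for unstimulated cells (0 h) and 1 and 3 h of each cytokine, coloured by temperature. After 3 h of TNF-α the 34, 37 and 40 °C points lie below their unstimulated points, and the 24 °C points overlap theirs or lie beside them.

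The list of 32 TGF-β and BMP genes has 25 in the table, 7 of them members. After 3 h of TNF-α, 10 of the 25 were called lower and 3 higher at 34 °C, 10 and 3 at 40 °C, and 0 and 5 at 24 °C. These counts, like those of the lists below, include the members, which were chosen for their fall. Of all genes, 6.86% were called lower and 5.71% higher at 34 °C, 9.36% and 9.91% at 40 °C, and 1.05% and 1.37% at 24 °C. The median of the whole list was -0.12, -0.04 and 0.04. Among the genes that were no members, Tgfbr1, a TGF-β receptor, fell (-0.52 at 34 °C, -0.90 at 40 °C), and Tgfb1, another ligand, rose (0.59 and 1.03).

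Of 19 other transcription factors, 18 were called lower at 34 °C and 17 at 40 °C, with medians of -0.76 and -0.91, and 0 at 24 °C (median 0.10). Of all members, 61.4% and 66.1% were called lower at 34 and 40 °C. Pparg, the master regulator of fat cell differentiation, went from 60.5, 58.8 and 63.8 FPKM to 34.3, 39.6 and 31.1 at 34 °C and from 45.6, 46.9 and 43.5 to 16.1, 18.3 and 18.5 at 40 °C (-0.79 and -1.32, SE 0.11). Klf2, a Krüppel-like factor known for its part in quiescent endothelium, fell from 14.8, 10.8 and 13.8 FPKM to 6.83, 8.58 and 7.88 and from 10.2, 10.1 and 8.24 to 4.58, 5.50 and 3.76. In neither gene did the groups overlap. At 24 °C unstimulated Klf2 stood at 37.5, 33.1 and 36.1 FPKM, above 34 °C by 1.38 (SE 0.14, adjusted p = 3.9e-10).

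Homeobox genes, which mark position in the body, were among the members. Hoxa2, Hoxa3, Hoxa4, Hoxa5 and Hoxc13, their cofactors Meis1 and Meis2, and Dlx2 were each called lower at 34 and at 40 °C. Hoxa5 went from 8.76, 12.4 and 7.58 FPKM to 4.99, 4.80 and 5.33 at 34 °C and from 15.7, 15.6 and 11.2 to 7.42, 7.79 and 5.12 at 40 °C. At 24 °C it held 18.6, 17.5 and 18.7 FPKM before and 27.2, 23.4 and 26.1 after TNF-α. Hoxa3 fell by -1.25 and -1.09 (SE 0.23), a value that may hold reads of genes that overlap it, among them Hoxaas2 and Hoxaas3 on the other strand. Dlx1, which neighbours Dlx2, changed by -0.54 and -0.31 and was not called. Foxc1, a forkhead factor of the mesenchyme, fell by -0.82 and -0.91 (SE 0.10), Mecom by -0.62 and -1.07 (SE 0.14) and Gata2 by -0.84 and -0.96 (SE 0.19). Vdr, the vitamin D receptor, was called at 34 °C (-0.37) and not at 40 °C (-0.30, adjusted p = 0.057). Of the 35 measured genes on a list of mesenchymal transcription factors, 5 are members, and TNF-α lowered 8 and raised 7 at 34 °C, lowered 8 and raised 4 at 40 °C, and moved 0 at 24 °C.

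**Figure D4:**
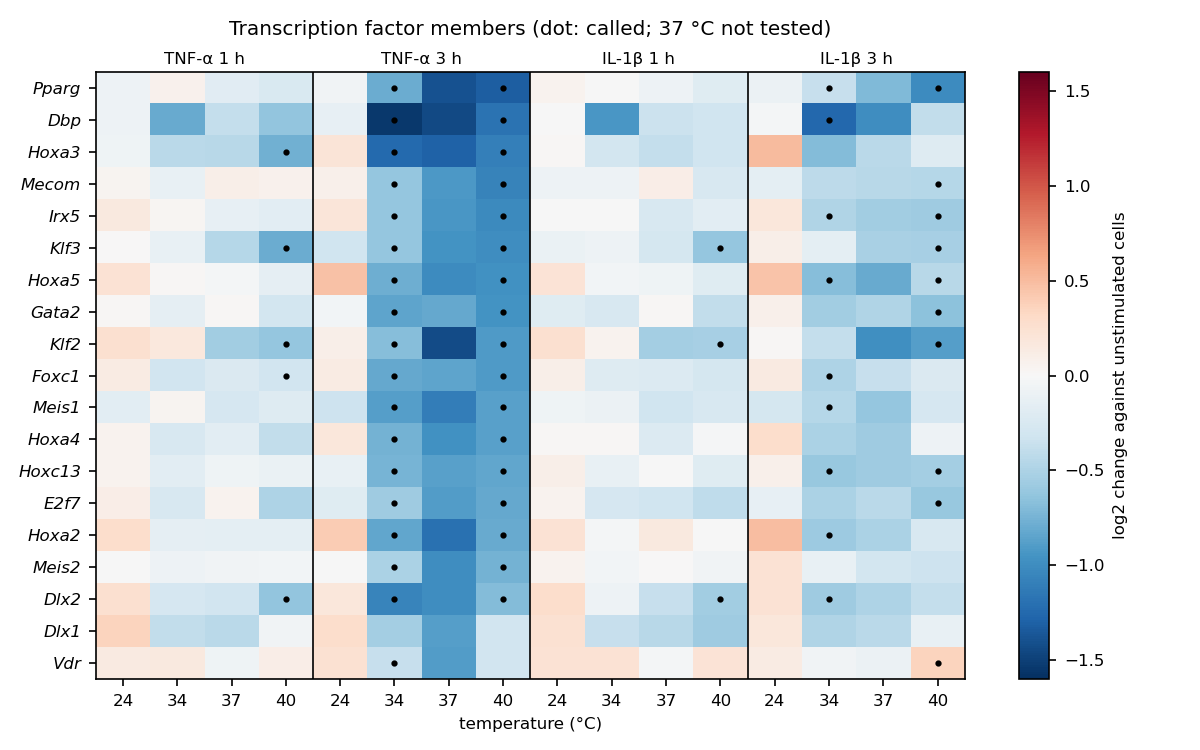
Log2 change against unstimulated cells of the same temperature for the transcription factor members (rows) in 16 conditions (columns, by cytokine, hour and temperature), with a dot where the change was called and no test at 37 °C. The columns of 3 h of TNF-α at 34, 37 and 40 °C are negative throughout, and the 24 °C columns hold no dot.

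Of 10 receptors and surface proteins, 8 fell at 34 °C and 8 at 40 °C (61.4% and 66.1% of all members), and 0 at 24 °C. Adra1d went from 32.5, 37.1 and 28.1 FPKM to 7.87, 9.56 and 7.12 at 34 °C and from 21.6, 23.7 and 22.5 to 5.99, 6.38 and 4.35 at 40 °C (-1.87 and -1.86, SE 0.16). At 24 °C it held 50.0, 34.0 and 36.6 FPKM before and 34.1, 29.0 and 35.0 after (-0.27, 95% interval -0.59 to 0.05). Fzd5, a Wnt receptor, fell from 18.0, 15.8 and 15.8 FPKM to 7.68, 6.93 and 6.10 and from 25.3, 24.3 and 17.8 to 7.77, 9.11 and 8.01 (-1.15 and -1.32, SE 0.12). F2r, the thrombin receptor PAR1, fell by -0.47 at 34 °C and by -1.08 at 40 °C (SE 0.08), a difference of -0.61 (SE 0.11, adjusted p = 0.00091). Boc, a co-receptor of Hedgehog ligands, fell by -0.59 and -0.74 (SE 0.08), and Vsir, an immune checkpoint protein, by -1.04 and -1.33.

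Other receptors of the same pathways moved too. Of 16 measured Wnt genes, of which Fzd5 is the only member, TNF-α lowered 8 at 34 °C and 10 at 40 °C and raised 0 and 0, with Fzd1, Fzd2, Fzd4 and Fzd7 lower at both (-0.38 to -0.71 at 34 °C, -0.76 to -1.05 at 40 °C). Of 6 Hedgehog genes, Boc, Cdon, Gli2 and Gli3 were lower at 34 and 40 °C, Gli2, a transcription factor that carries the signal, by -1.19 and -1.26. At 24 °C 0 genes of either list were called. Among 11 Notch genes, 1 was lower and 2 higher at 34 °C, and 4 and 1 at 40 °C. Lfng, a member that encodes a glycosyltransferase of Notch receptors, was lower at both (-1.25 and -1.11, SE 0.18).

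Of 6 secreted or membrane-bound ligands and matrix proteins, 4 fell at 34 °C and 5 at 40 °C (61.4% and 66.1% of all members). Thbs1, thrombospondin-1, an activator of latent TGF-β, was the most abundant member. It went from 1285, 1009 and 1429 FPKM to 698, 564 and 834 at 34 °C and from 727, 637 and 807 to 278, 240 and 299 at 40 °C (-0.83 and -1.41, SE 0.17). At 24 °C unstimulated libraries held 361, 337 and 348 FPKM of Thbs1, lower than at 34 °C by -1.81 (adjusted p = 2.8e-11), and TNF-α left it at 398, 356 and 395. Its 24 °C level before any cytokine was thus nearer to the TNF-α level than to the unstimulated level of 40 °C. Cemip, which takes part in hyaluronan breakdown, was lower at 24 °C in the same way: 1.80, 2.28 and 2.01 FPKM against 12.8, 9.14 and 11.8 at 34 °C (-2.01, SE 0.15), and TNF-α lowered it to 5.48, 4.68 and 4.70 at 34 °C. Fgf2, a fibroblast growth factor, fell by -0.94 and -0.77 (SE 0.15), and Efnb2, an ephrin, by -1.30 and -0.62 (SE 0.12). The list of 33 ligands holds 3 members. At 40 °C 17 genes of it were lower and 4 higher, where 9.36% and 9.91% of all genes were. At 34 °C 8 were lower and 4 higher, where 6.86% and 5.71% of all genes were. The contrast between the temperatures was not tested as such.

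Of 17 regulators inside the cell, 15 fell at 34 °C and 13 at 40 °C (61.4% and 66.1% of all members). Spry1, which restrains signalling from growth factor receptors, went from 9.82, 8.87 and 10.9 FPKM to 2.90, 2.22 and 2.72 and from 8.32, 7.08 and 8.20 to 3.00, 1.84 and 2.50 (-1.59 and -1.37, SE 0.17). Rgs4, which turns off G proteins, fell by -1.66 and -0.87 (SE 0.23, the latter with an adjusted p of 0.052 without 1 library), and Dusp14, a MAP kinase phosphatase, by -0.84 and -0.59 (SE 0.16, the latter with up to 0.056). Gadd45g, a growth arrest gene, went from 31.7, 30.8 and 35.6 FPKM to 10.0, 9.29 and 12.9 and from 27.1, 34.6 and 25.6 to 13.7, 11.5 and 20.8. Rasl11a fell by -1.52 and -1.34 (SE 0.27) and Trib2, a pseudokinase, by -0.95 and -1.49 (SE 0.22). Spry1, Rgs4 and Dusp14, 3 members of the MAP kinase inhibitor list, were each called lower at both temperatures and did not speak for the rest of it. With these 3 counted, 4 of 15 measured were lower and 6 higher at 34 °C, and 4 and 6 at 40 °C. Rgs16 and Dusp8 were higher at both.

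Of 6 members of the actin and muscle-type cytoskeleton, 4 fell at 34 °C and 5 at 40 °C (61.4% and 66.1% of all members). Cobl, an actin nucleator, went from 10.6, 8.59 and 9.51 FPKM to 3.88, 3.46 and 5.66 at 34 °C and from 8.03, 6.58 and 5.98 to 1.39, 2.01 and 1.76 at 40 °C (-1.005 and -1.53, SE 0.16). At 24 °C the change of Cobl was not called, from 3.59, 4.95 and 4.92 FPKM to 5.70, 5.27 and 8.04 (0.41, adjusted p = 0.20). Lmod1, leiomodin-1, fell by -0.84 and -1.19 (SE 0.16), Lmcd1 by -1.26 and -1.25 (SE 0.19) and Pdlim2 by -0.87 and -0.997 (SE 0.12). Carmn, a smooth muscle long noncoding RNA, was called at 40 °C (-0.60) and not at 34 °C (-0.28). Outside these roles, Dhrs3, a retinaldehyde reductase, went from 58.3, 58.1 and 71.9 FPKM to 27.0, 26.8 and 25.7 at 34 °C and from 42.0, 57.6 and 48.4 to 12.6, 10.7 and 12.3 at 40 °C, and its fall was larger at 40 °C by -0.75 (SE 0.16, adjusted p = 0.0057). Fam13c fell by -0.92 and -1.64 (difference -0.71, adjusted p = 0.012, and up to 0.067 in 2 alternatives). Dbp, a clock output gene, fell by -1.55 and -1.18 (SE 0.30). Of 14 clock genes, 6 were lower and 1 higher at 34 °C, and 5 and 1 at 40 °C, and at 24 °C 0 and 3.

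The members that fell less at 40 °C than at 34 °C were Id3 (difference 0.74, SE 0.13, adjusted p = 0.00044), Efnb2 (0.68, adjusted p = 0.021) and Atoh8 (0.50, adjusted p = 0.028). In each of them the unstimulated level was higher at 40 °C, for Atoh8 by 0.66 (SE 0.09) and for Id3 by 0.52 (SE 0.09). The difference of Efnb2 was lost in 4 alternatives and that of Atoh8 in 8, with adjusted p up to 0.097 and 0.13.

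IL-1β lowered fewer of the members. After 3 h it lowered 47 at 34 °C and raised 0 (background 2.62% and 2.66%). At 40 °C it lowered 50 (background 4.02%) and raised Vdr (0.36, background 4.63%), a call that 5 alternatives lost, with adjusted p up to 0.35. At 24 °C limma called 0 lower (background 0.504%) and 0 higher (0.919%). At an unadjusted p below 0.05, 7 were lower (6.63% of all genes) and 6 higher. Without the unstimulated replicate 1 at 24 °C, 1 was called lower. The medians of the members were -0.48, -0.42 and 0. These comparisons use the same unstimulated libraries as those of TNF-α. At 37 °C, also against shared libraries and without a test, the median was -0.52.

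Direct comparison of the cytokines at 3 h shares no library with the rule at 34 and 40 °C. At 34 °C, 20 members were lower with TNF-α than with IL-1β (background 0.761%) and 0 higher (1.66%). At 40 °C, 38 were lower (background 2.47%) and Arc was higher (0.78, background 3.09%, adjusted p up to 0.076 in alternatives). Of the 20 and the 38, the same 15 were lower at both temperatures, and 43 at either. The 20 became 12 without the TNF-α replicate 2 and 13 without the IL-1β replicate 1, and the 38 became 25 without the IL-1β replicate 2. At 24 °C, limma called 0 members lower and 0 higher (background 0% and 0.0889%). At an unadjusted p below 0.05, 3 were lower (3.13% of all genes) and 1 higher. Since the rule chose genes for their fall with TNF-α at 37 °C, a lean towards TNF-α in the choice of members is part of these counts.

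The 15 were Id1, Id2, Id3, Atoh8, Smad9, Ski, Dhrs3, Gprin3, Rgs4, Adra1d, Boc, Meis1, Spry1, Midn and F2r, of which 6 are BMP and TGF-β members. Of the 8 such members, 6 were lower with TNF-α at 34 °C and 7 at 40 °C. After 3 h of IL-1β, Id1 held 175, 176 and 162 FPKM at 34 °C and 266, 254 and 206 at 40 °C. All 6 of these values were above the TNF-α values of the same temperature, and IL-1β did not change Id1 beyond its error (-0.05, 95% interval -0.24 to 0.14, and 0.12, -0.07 to 0.31). The TNF-α minus IL-1β difference was -1.03 and -0.89 (SE 0.10). For Id2 the IL-1β libraries held 44.4, 49.6 and 41.5 FPKM at 34 °C and 60.6, 61.3 and 61.1 at 40 °C, and the difference was -1.16 and -1.46 (SE 0.12). Id3 differed by -1.36 and -1.01 (SE 0.09), Atoh8 by -1.05 and -1.14 (SE 0.09) and Smad9 by -0.65 and -0.93 (SE 0.13, adjusted p up to 0.061 at 34 °C). IL-1β lowered Id2, Id3 and Atoh8 at 34 °C, by -0.51, -0.59 and -0.76. At 40 °C it changed them by -0.15, -0.22 and -0.17, none of them called. Members outside BMP and TGF-β signalling differed as well: Rgs4 by -1.19 at 34 °C, Adra1d by -0.89 and -0.77, and Dhrs3 by -1.33 at 40 °C. The differences of Spry1 (-0.67 and -0.56), Rgs4 at 40 °C (-0.85), Boc at 34 °C (-0.34) and F2r (-0.29 and -0.35) each lost their call in some alternative.

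**Figure D5:**
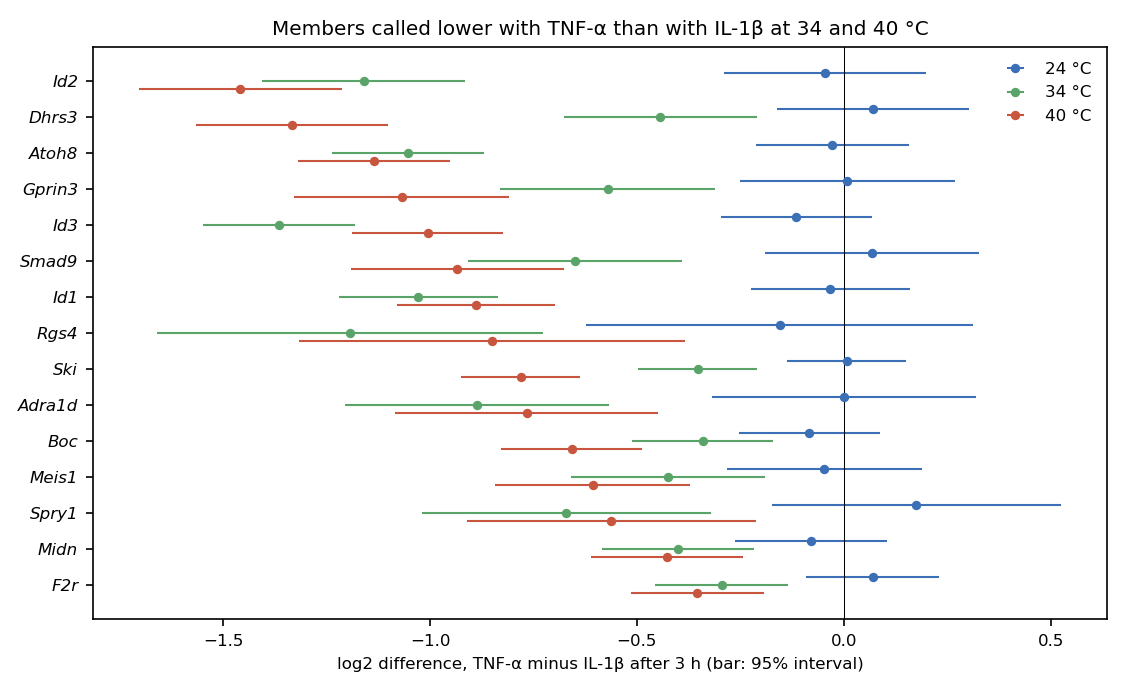
Log2 difference after 3 h, TNF-α minus IL-1β, with its 95% interval, for the 15 members called lower with TNF-α at both 34 and 40 °C, with 24 °C beside them (colours). Differences of -0.89 to -1.46 are reached by the Id genes and Atoh8 at both temperatures, among others. These include Rgs4 and Adra1d at 34 °C and Dhrs3 and Smad9 at 40 °C. F2r, Ski and Boc at 34 °C lie between -0.29 and -0.35. At 24 °C each interval includes 0.

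For other members the difference between the cytokines was not called at either temperature, which does not show that they acted alike. Thbs1 after 3 h of IL-1β stood at 701, 573 and 806 FPKM at 34 °C and at 281, 258 and 310 at 40 °C, and TNF-α differed from that by 0.01 (95% interval -0.33 to 0.34) and -0.06 (-0.39 to 0.28). Dusp14 differed by -0.09 (-0.41 to 0.23) and 0.00 (-0.32 to 0.32). Cobl differed by -0.07 (-0.39 to 0.25) and -0.20 (-0.52 to 0.12). For Tgfb3 the differences were -0.15 (-0.36 to 0.06) and -0.28 (-0.49 to -0.07, adjusted p = 0.12). Smad6 was the BMP member called at 40 °C alone (-0.97, SE 0.17), with -0.42 at 34 °C (adjusted p = 0.29). Trib2 also differed at 40 °C (-1.14, SE 0.22): IL-1β libraries held 4.78, 3.71 and 5.31 FPKM there, and TNF-α libraries 2.18, 1.38 and 1.11.

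At 1 h fewer members were called than at 3 h. At 34 °C TNF-α had lowered 4 members (background 0.207%): Lfng (-0.78), Fzd5 (-0.47), Atoh8 (-0.37) and a gene model. There 93 of the 127 changes were negative (58.6% of all genes), and 23 members were lower at an unadjusted p below 0.05 (4.54% of all genes). The calls of Lfng, Fzd5 and Atoh8 were lost in 1, 3 and 4 alternatives, and without the TNF-α replicate 3 there were 2. Arc and Edn1 were higher (background 1.51%). IL-1β had lowered Tgfb3 (-0.41) and a gene model (background 0.0494%) and raised 0 (1.11%), the former with an adjusted p up to 0.50 in alternatives, and 1 was left without the unstimulated replicate 1 or 3. At 40 °C TNF-α had lowered 27 (background 2.35%) and raised 0 (3.02%), and IL-1β had lowered 22 (background 0.958%) and raised 0 (2.2%). The 22 became 12 without the unstimulated replicate 1, 9 without the unstimulated replicate 2 and 11 without the IL-1β replicate 2. At 24 °C limma called 0 lower with either cytokine (background 0.0494% and 0.00988%) and 0 higher (0.119% and 0.0395%). At an unadjusted p below 0.05, 2 and 4 were lower (4.3% and 3.14% of all genes) and 4 and 3 higher. Without the unstimulated replicate 1, 1 was called lower with IL-1β. The member medians after 1 h of TNF-α were -0.16 at 34 °C, -0.28 at 40 °C and 0.06 at 24 °C.

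The difference in the 1 h response between 40 and 34 °C was tested after the data had been seen. It was negative in 7 members for TNF-α and positive in 0 (0.346% and 0.405% of all genes), and negative in 4 and positive in 0 for IL-1β (0.296% each). For TNF-α these were Edn1 (-1.51), Id2 (-1.17), Fzd5 (-0.90), Klf2 (-0.79), Id1 (-0.78), Id3 (-0.75) and Boc (-0.47). For IL-1β they were Edn1 (-2.07), Fzd5 (-0.99), Sertad4 (-0.66) and Id1 (-0.59). The 7 became 4 without the 40 °C TNF-α replicate 1, the 34 °C unstimulated replicate 2 or the 40 °C unstimulated replicate 2. The 4 became 2 without any of 6 libraries, namely unstimulated replicate 2 of either temperature, unstimulated replicate 1 at 40 °C, IL-1β replicate 2 of either temperature, or IL-1β replicate 3 at 34 °C. After 1 h of TNF-α, Id2 held 45.9, 49.5 and 55.2 FPKM at 34 °C and 16.3, 31.3 and 23.3 at 40 °C, and the latter did not differ from 3 h beyond its error (-0.08, 95% interval -0.33 to 0.16). At 34 °C it went on falling from 1 to 3 h (-1.31, SE 0.12). Id1 held 175, 173 and 174 FPKM at 1 h at 34 °C and 121, 124 and 135 at 40 °C, where 3 h differed from 1 h by 0.03 (-0.16 to 0.22). Fzd5 at 40 °C held 8.75, 8.24 and 6.89 FPKM after 1 h of TNF-α and 8.99, 9.08 and 7.01 after 1 h of IL-1β, from 25.3, 24.3 and 17.8. At 24 °C no Id2 library of 1 h of TNF-α (71.5, 91.3 and 86.5 FPKM) was under 70 FPKM.

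Between 1 and 3 h of TNF-α, 63 members fell at 34 °C (background 3.39%) and 55 at 40 °C (background 5.61%), and 0 rose at either (3.1% and 8.64%). At 24 °C limma called 0 lower and 0 higher (background 0.642% and 0.761%). At an unadjusted p below 0.05, 13 were lower (9.34% of all genes) and 2 higher. Between 1 and 3 h of IL-1β at 37 °C, libraries that the rule did not use, 22 fell and 0 rose (background 1.53% and 1.15%), led by Arc (-1.83), Edn1 (-1.46) and Thbs1 (-0.96). That count was 14 without the 1 h replicate 1 and 12 without the 1 h replicate 3. TNF-α and IL-1β at 1 h and 37 °C could be compared as well. Id2 alone was lower with TNF-α (-0.54, SE 0.12, adjusted p = 0.038, background 0.0494%, and 0 members higher, background 0.0988%), at 36.1, 40.5 and 37.9 FPKM against 55.6, 55.9 and 56.7. The groups did not overlap, as in 4.31% of all genes with TNF-α lower, but 8 alternatives lost this call (adjusted p up to 0.25).

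At 34 °C Arc and Edn1 rose after 1 h of TNF-α. Arc, an immediate-early gene, went at 34 °C from 3.46, 5.33 and 2.71 FPKM to 8.12, 7.67 and 8.25 after 1 h of TNF-α (0.93, SE 0.19, adjusted p = 0.0013) and to 1.33, 1.84 and 2.08 after 3 h. At 40 °C its unstimulated level was already 24.9, 33.1 and 17.1 FPKM, 2.42 above 34 °C (SE 0.19, adjusted p = 4.4e-13), and after 1 h of TNF-α it held 31.2, 22.6 and 35.0. After 3 h at 40 °C Arc was at 9.78, 10.4 and 8.20 FPKM with TNF-α and at 6.45, 4.66 and 4.27 with IL-1β. Edn1, the precursor of the vasoconstrictor endothelin-1, went at 34 °C from 3.74, 2.65 and 7.85 FPKM to 13.4, 8.26 and 20.9 after 1 h (1.42, SE 0.27) and to 2.82, 3.26 and 2.44 after 3 h, a final change of -0.48 that was not called. At 40 °C it went from 4.54, 4.73 and 2.19 FPKM to 2.45, 3.46 and 4.42 and then to 0.90, 0.46 and 1.06. At 24 °C Edn1 was high in unstimulated cells (12.5, 14.5 and 15.4 FPKM) and was at 24.2, 20.1 and 20.9 after 3 h of TNF-α (0.59, adjusted p = 0.33). Without the unstimulated replicate 2 at 34 °C, the fall of Arc after 3 h of TNF-α there had an adjusted p of 0.067, and with 34 °C libraries alone in the fit the rise of Edn1 had one of 0.066.

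Temperature by itself moved some members. In unstimulated cells, 25 members differed between 40 and 34 °C, 12 lower and 13 higher (4.7% and 5% of all genes), and 45 between 24 and 34 °C, 24 lower and 21 higher (11.3% and 10.3%). The 25 became 16 without replicate 1 of either temperature. Besides Arc, the largest rises at 40 °C were those of Carmn (1.03) and Cys1 (0.94), and the largest falls those of Rgs4 (-0.79), Thbs1 (-0.77) and Vdr (-0.67). At 24 °C the largest rises were those of Pagr1a (3.19), Edn1 (1.50) and Klf2 (1.38), and the largest falls those of Cemip (-2.01), Thbs1 (-1.81) and Rgs4 (-1.30). Pagr1a ranged there from 9.94 to 22.0 FPKM over its 3 unstimulated libraries, and 3 alternatives lost its call, as 3 did for Cys1 and 3 for Rgs4 at 40 °C.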

How the data were processed

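The authors deposited 1 table of FPKM values for 10122 genes in 60 libraries. Per the submitters' processing notes it was made with STAR 2.7.11b, RSEM 1.3.3 and edgeR on GRCm39. The notes give no order or role, and filters and strand are not given in the sources used here. All 10122 identifiers match GENCODE M21, an annotation of GRCm38, so gene coordinates are not given. Promoter windows are those of RefSeq on GRCm38.p6. RSEM divides reads among overlapping and near-identical genes by estimate, which can swing such genes between 0 and high values.

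From the deposited FPKM values, log2(FPKM + 1) was fitted in limma 3.58.1 (R 4.3.3) with 20 group means over all 60 libraries, moderated variances with a trend (40 residual and 4.37 prior degrees of freedom), no further filter on low values, and two-sided tests adjusted by Benjamini-Hochberg over 10122 genes in each of 27 comparisons. All 127 members were tested. No p is given for comparisons that use the unstimulated or 3 h TNF-α libraries at 37 °C. The script was tested on simulated data. Figures used matplotlib 3.10.9, counts Python 3.11.15 with pandas 2.3.3.

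The members and gene lists were chosen with earlier results of these data known, and roles were assigned after values had been seen. The rule gave every library's value for the 10 members with the largest fall, of which 4 gene models were left out. Values by library of other members were added after they had been seen. Named genes are the list and role members and up to 3 called members per comparison and direction. Unnamed gene models were counted only. The labels call replicates independent, without saying whether a number marks a shared day. For same-numbered libraries, deviations from the group means gave 81 correlations in the 27 comparisons, at -0.143 to 0.288 (median 0.0464). Comparisons of responses between temperatures repeat the values of simpler comparisons among these. The number was therefore not used as a block in the main tests, where its part stays unsettled.

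Alternatives were a pseudocount of 0.25 or 4, only genes with a mean of at least 3 FPKM, rescaling of libraries, variances without a trend, only libraries of the compared temperatures, a replicate block, and leaving out each library. Depth was sought from the steps of low FPKM values. At the best depth, 27.6% to 88.9% of a library's values used lay within 0.15 of a whole fragment, against 30% for an even spread, so depth is treated as unknown and no counting interval is given.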

Additional observations from a re-analysis of the deposited data

Results flagged for a closer look

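Responses that differed between temperatures were singled out by a test of the difference itself. After 3 h of TNF-α, 7 members responded differently at 40 and 34 °C, 63 at 24 and 34 °C and 68 at 24 and 40 °C. For the 1 h responses, where the difference between 40 and 34 °C was added after seeing the data, 7 members differed with TNF-α and 4 with IL-1β.

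Falls that were larger at 40 than at 34 °C after 3 h of TNF-α were those of Dhrs3 (log2 difference -0.75), Fam13c (-0.71), F2r (-0.61) and Ski (-0.45). Smaller at 40 °C were those of Id3 (0.74), Efnb2 (0.68) and Atoh8 (0.50). The 24 °C response lay furthest above the 34 °C response for Id3 (1.84), Rasl11a (1.82) and Id2 (1.77), and furthest above the 40 °C response for Dhrs3 (2.21), Edn1 (1.97) and Cobl (1.94). After 1 h of TNF-α the 40 °C response lay furthest below the 34 °C response for Edn1 (-1.51), Id2 (-1.17) and Fzd5 (-0.90). After 1 h of IL-1β it lay furthest below for Edn1 (-2.07), Fzd5 (-0.99) and Sertad4 (-0.66), the last lost in 13 alternatives. The depth of the libraries is unknown, and its part in these differences was not tested.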

How the results depend on the processing

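The counts of members lowered by 3 h of TNF-α stayed within 70 to 81 at 34 °C and 78 to 86 at 40 °C under all 13 alternatives of each. At 24 °C the count of 0 became 1 with a pseudocount of 0.25 and 1 with the replicate block, and 0 to 2 with a library left out. For IL-1β at 24 °C it was 0 to 1 at 3 h and 0 to 1 at 1 h with a library left out. The replicate block raised the 1 h TNF-α count at 34 °C from 4 to 7, and leaving out a library gave 2 to 4. With only the libraries of the compared temperatures in the fit, so fewer residual degrees of freedom, counts fell from 27 to 16 (TNF-α 1 h, 40 °C), 22 to 8 (IL-1β 1 h, 40 °C), 2 to 1 (IL-1β 1 h, 34 °C), 38 to 24 (TNF-α against IL-1β, 40 °C), 22 to 12 (IL-1β 3 h against 1 h, 37 °C), 7 to 4 (1 h TNF-α, 40 minus 34 °C) and 4 to 2 (1 h IL-1β, 40 minus 34 °C). The count of 2 for IL-1β at 1 h and 34 °C was 1 with a mean of at least 3 FPKM and 1 after rescaling. Leaving out a library gave 1 to 3 there, 9 to 19 for IL-1β at 1 h and 40 °C, 12 to 16 and 25 to 34 for TNF-α against IL-1β at 34 and 40 °C, 12 to 19 for IL-1β 3 h against 1 h, 16 to 20 for unstimulated 40 against 34 °C, and 4 to 9 and 2 to 5 for the 1 h differences. Id2, the 1 member lower with TNF-α at 1 h and 37 °C, was lost (0) with a pseudocount of 0.25, without a trend and with any library left out. Of 2598 alternative values of single genes, 157 lost their call and 0 reversed. In 1 of 27 comparisons, TNF-α against IL-1β at 3 h and 40 °C, all 3 same-numbered pairs deviated together at r over 0.1, and the replicate block gave 45 there against 38. Over all comparisons 23 of the 81 correlations were over 0.1, and what same-numbered libraries share is not stated. The block left the counts not named with it here within 1.5 times. The causes were not tested. Membership itself ranged from 129 to 141 genes with a library left out, 104 to 113 of them shared with the 127, and was 122 after rescaling, 122 of them shared. Depth is unknown, so how small a change of low genes could be resolved is unknown too, and 0 calls at 24 °C do not show equal levels.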
